A study of Mus musculus with 6 samples.

Results

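Oligodendrocytes wrap the axons of the brain in myelin, and the 36 genes described here are genes of mature oligodendrocytes and of the myelin sheath. They were chosen by name, from a list of structural proteins of myelin, enzymes of myelin lipids, junction proteins, transcription factors, receptors and carriers. The choice was made with earlier results of these data known. All 36 had a row in the deposited count table of 15423 genes, and all 36 were among the 15345 genes that passed the filter on low counts. The lowest count of any of them in any mouse was 12, for Cldn14 in CTR mouse 5.

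Hippocampal RNA came from 3 control (CTR) and 3 short day (SD) C57BL/6J mice. CTR mice were bred and kept in a light/dark cycle of 12 h and 12 h. The SD breeders were moved to 8 h light and 8 h dark and paired there, and their pups stayed on it until postnatal day 42, so the SD group differs from the CTR group in the light cycle of the parents, of gestation and of postnatal life together. No allele or agent distinguishes the groups. The mouse numbers are 1, 2 and 5 for CTR and 2, 5 and 6 for SD, as in the sample titles. The paper describes dissected hippocampi while the extraction protocol in the labels speaks of cells and spheroids, and the age, the time of day and the litter of these 6 mice are facts that none of the sources used here gives. The p-values below therefore measure only the spread between these mice.

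In the central nervous system a mature oligodendrocyte extends sheets of membrane that spiral around axons and compact into myelin. Compaction depends on basic and proteolipid proteins, the membrane is rich in galactolipids and cholesterol, and the innermost and outermost turns carry adhesion molecules that face the axon or the outside. Precursor cells persist in the adult hippocampus and can mature into myelinating cells, a step that requires the transcription factor MYRF.

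Total counts were between 23300710 and 34447082 per mouse. CTR mouse 5 had 30044 counts of Xist and 10 of the Y-linked gene Ddx3y, while the other 5 mice had at most 20 counts of Xist and at least 1652 of Ddx3y, so sex was not balanced between the groups. The ribosomal precursor gene Rn45s held 1.84% of all reads counted in CTR mouse 1 and at most 0.231% in the others. All 12 listed markers of hippocampal principal neurons were in the table, and their summed level was 1143 to 1206 CPM (counts scaled to library size, with TMM factors) in CTR mice and 1157 to 1237 CPM in SD mice. Other regions were unequally present. The 13 thalamic markers summed to 588 CPM in CTR mouse 2 and to 283 to 388 CPM in the other 5 mice, and the 14 choroid plexus markers to 153 to 3235 CPM in CTR mice and 2571 to 7688 CPM in SD mice.

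Most of the 36 myelin genes were slightly higher in the hippocampi of SD mice, but their summed level overlapped between the groups. It was 9004 CPM in CTR mouse 2 and 8880 CPM in SD mouse 2. The genes varied together between mice and were chosen with earlier results of these data known. The counts of genes below are therefore a description and not independent observations, and the list as a whole was not tested. Of the 36 genes 33 had a log2 fold change above 0 (SD relative to CTR), against 50.4% of all genes tested, and the median was 0.23 where that of all genes was 0.0015. In the quasi-likelihood test of edgeR, fitted over all genes, 18 of the 36 were higher at an unadjusted p of at most 0.05 and none was lower, where 4.65% of all genes tested were higher and 3.68% lower at that p (8.32% together). The differences were small: the log2 fold changes of these 18 genes ran from 0.22 to 0.60. Only Opalin also reached the study's fold cutoff of 0.58 on the log2 scale, and both cutoffs together were passed upwards by 2.1% of all genes and downwards by 0.88% (2.98% together). After Benjamini-Hochberg adjustment over all genes none of the 36 passed 0.05 in edgeR, nor did any other gene (0%), and the lowest adjusted p of the 36 was 0.51. The adjusted p given below for each gene is that of edgeR over all genes, and a gene is said to pass where its unadjusted p was at most 0.05. In the alternative test, DESeq2, 19 were higher at an unadjusted p of at most 0.05 and none was lower. In that test 4.06% of all genes were higher at that p. Opalin and Cldn11 had DESeq2 adjusted p-values of 0.0030 and 0.037, among 56 genes under 0.05. Over the alternatives run the adjusted p reached up to 0.95 for Opalin and 1.0 for Cldn11. In 15 of the 36 genes all 3 SD mice lay above all 3 CTR mice, and in none below, against 6.11% and 6.2% of all genes. In bulk tissue fewer cells of a type and less RNA per cell cannot be told apart, so these levels do not separate more oligodendrocytes from more RNA in each.

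**Figure D1:**
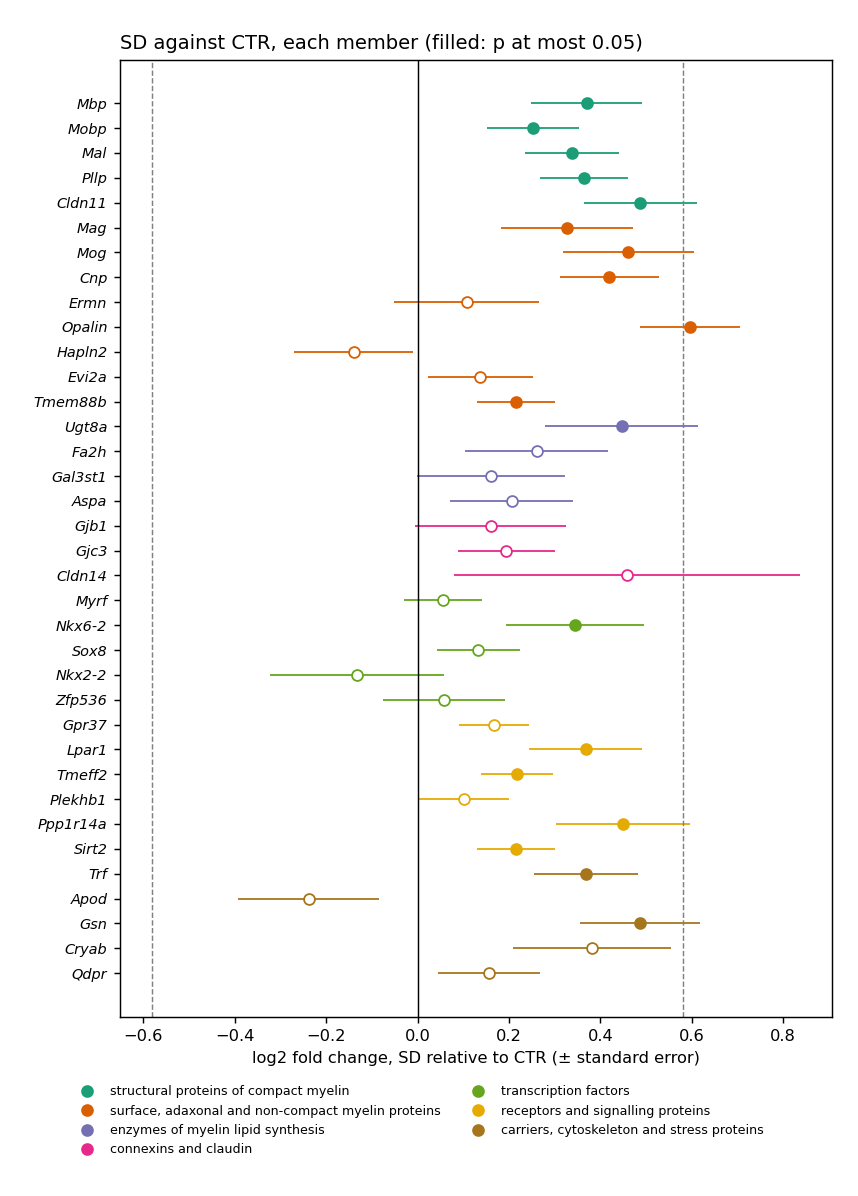
Log2 fold change of SD relative to CTR mice with its standard error (x axis) for each of the 36 genes (y axis), coloured by role. Filled points have an unadjusted p of at most 0.05 in edgeR, the dashed lines mark the fold cutoff of 0.58 in each direction, and 33 of the 36 points lie right of 0.

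Opalin, which encodes a transmembrane glycoprotein of oligodendrocytes in the central nervous system, had the smallest p of the 36 genes and ranked sixth by p among the 15345 genes tested. Its level was 19.8, 24.5 and 22.7 CPM in CTR mice 1, 2 and 5 and 34.5, 30.8 and 36.1 CPM in SD mice 2, 5 and 6. Every SD mouse was above every CTR mouse, and the gap between the groups was wider than the range within either. The means were 22.4 ± 2.39 CPM and 33.8 ± 2.71 CPM (standard deviation, n = 3 in each group), and the log2 fold change was 0.60 (standard error, SE, 0.11, adjusted p = 0.51). Its log2 fold change stayed between 0.51 and 0.67 when any 1 of the mice was left out, and it passed the unadjusted cutoff in each of these fits. Because it lies close to the fold cutoff, it fell below it without CTR mouse 1 (0.51) and without SD mouse 6 (0.54). The gene lies on chromosome 19 of GRCm38, the build of mm10, from 41061959 to 41077113 on the minus strand in the RefSeq annotation.

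The promoters of the 4 genes of smallest p among those with a promoter window in the table are shown, since these genes all passed upwards and 2 transcription factor families, SOX and MYRF, are known to act on myelin genes. Each runs 5′ to 3′ from 250 bases before to 50 bases after the RefSeq start (GRCm38.p6). Opalin is at chr19:41077064-41077363 (minus strand), Cnp at chr11:100574689-100574988 (plus strand), Cldn11 at chr3:31149670-31149969 (plus strand) and Pllp at chr8:94696193-94696492 (minus strand). Capitals mark the SOX core (ACAAAG or ACAATG), the MYRF motif (CTGGCAC or CTGGTAC) and the E-box CACGTG of clock factors, each searched on both strands, so a reverse match appears as the reverse complement. No matches overlap in these windows.
Opalin: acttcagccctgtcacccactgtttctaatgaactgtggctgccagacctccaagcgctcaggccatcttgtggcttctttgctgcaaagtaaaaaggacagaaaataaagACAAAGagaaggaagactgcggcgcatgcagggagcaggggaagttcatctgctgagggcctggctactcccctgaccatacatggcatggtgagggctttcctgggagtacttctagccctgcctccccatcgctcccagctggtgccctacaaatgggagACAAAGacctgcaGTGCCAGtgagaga
Cnp: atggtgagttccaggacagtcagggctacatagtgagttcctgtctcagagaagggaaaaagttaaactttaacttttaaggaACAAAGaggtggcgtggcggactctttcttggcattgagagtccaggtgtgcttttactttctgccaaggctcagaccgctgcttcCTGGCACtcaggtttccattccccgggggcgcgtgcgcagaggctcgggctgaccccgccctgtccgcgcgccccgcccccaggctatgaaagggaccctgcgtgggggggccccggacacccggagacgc
Cldn11: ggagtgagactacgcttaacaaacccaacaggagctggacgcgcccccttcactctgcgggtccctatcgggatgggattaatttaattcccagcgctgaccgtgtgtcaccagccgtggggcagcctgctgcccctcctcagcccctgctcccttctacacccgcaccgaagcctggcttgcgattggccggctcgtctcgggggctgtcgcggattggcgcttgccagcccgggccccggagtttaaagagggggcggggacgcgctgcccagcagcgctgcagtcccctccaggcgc
Pllp: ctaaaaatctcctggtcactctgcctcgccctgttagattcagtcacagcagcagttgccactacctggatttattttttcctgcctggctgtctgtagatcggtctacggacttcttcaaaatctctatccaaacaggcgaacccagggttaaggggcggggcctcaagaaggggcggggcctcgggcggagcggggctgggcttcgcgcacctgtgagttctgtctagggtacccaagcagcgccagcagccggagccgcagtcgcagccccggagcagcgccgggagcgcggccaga
Opalin held 2 SOX cores and 1 MYRF motif, Cnp held 1 of each, and Cldn11 and Pllp held none of these letters. Windows were found for 30 of the 36 genes, 44 windows in all because some genes have several starts. The SOX core was in 40.9% of these windows and in 28.6% of all 32851 windows of the same length, the MYRF motif in 15.9% and 7.10%, and the E-box in 6.82% and 7.15%. These matches describe letters only.

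Genes of compact myelin were higher in SD mice throughout: all 5 had an unadjusted p of at most 0.05. Per kilobase of merged exon length Mbp, whose product holds the cytoplasmic faces of the membrane together, had the highest level of the 36 genes in CTR mice, 375 CPM per kb, followed by Mobp with 196 and Mal with 146. Mbp measured 2936, 3679 and 2918 CPM in CTR mice 1, 2 and 5 and 3558, 4141 and 4618 CPM in SD mice 2, 5 and 6. CTR mouse 2 lay above SD mouse 2, so the groups overlapped, and the log2 fold change was 0.37 (SE 0.12, adjusted p = 0.54). Mobp, another basic protein of compact myelin, measured 1230, 1526 and 1277 CPM and 1468, 1666 and 1670 CPM in the same order of mice, at a log2 fold change of 0.25 (adjusted p = 0.56) and the same overlap between the mice numbered 2. Mbp no longer passed without CTR mouse 1 or SD mouse 6, and among the fits that left out a mouse Mobp passed only without CTR mouse 2 or SD mouse 2.

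The other 3 genes of compact myelin did not overlap between the groups. Mal, a proteolipid of the sheath, measured 363, 448 and 411 CPM in CTR mice and 475, 579 and 490 CPM in SD mice, and its log2 fold change of 0.34 (adjusted p = 0.51) passed in every fit except that without SD mouse 5. Pllp, which encodes plasmolipin, measured 45.1, 49.9 and 40.5 CPM and 59.0, 54.4 and 60.9 CPM, a log2 fold change of 0.36 (SE 0.10, adjusted p = 0.51). Cldn11, the claudin of the tight junctions between myelin turns, measured 164, 202 and 152 CPM and 207, 256 and 263 CPM, and at 0.49 (SE 0.12, adjusted p = 0.51) its log2 fold change was the largest of the 5. CTR mouse 2 was the highest CTR mouse and came within a few CPM of SD mouse 2 for Cldn11. Claudin 11 is also made by cells of the leptomeninges. The 8 leptomeningeal fibroblast markers summed to 90.6 to 156 CPM in CTR mice and 125 to 141 CPM in SD mice, highest in CTR mouse 1. Of the 8, 5 had a log2 fold change above 0, with a median of 0.13, and none had a p of at most 0.05. The part of leptomeningeal RNA in the Cldn11 values was not tested.

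Among 8 genes of the surface and of the non-compact turns, 5 had an unadjusted p of at most 0.05, Opalin included. Cnp, the cyclic nucleotide phosphodiesterase of non-compact myelin, measured 389, 467 and 348 CPM in CTR mice and 501, 551 and 559 CPM in SD mice. The log2 fold change was 0.42 (SE 0.11, adjusted p = 0.51), and the groups did not overlap. Mog, a glycoprotein of the outermost surface, measured 79.0, 109 and 70.1 CPM in CTR mice and 113, 125 and 117 CPM in SD mice, a log2 fold change of 0.46 (adjusted p = 0.51). Mag, the adhesion molecule that faces the axon, measured 195, 199 and 129 CPM in CTR mice and 213, 219 and 224 CPM in SD mice. Here CTR mouse 5 was well below the other 2 CTR mice, and the log2 fold change was 0.33 with all mice (SE 0.14, adjusted p = 0.59) and 0.15 without that mouse (SE 0.075). Mag passed with all mice and without CTR mouse 1 or 2, but not without CTR mouse 5 or any SD mouse. Tmem88b measured 69.7, 79.0 and 65.7 CPM in CTR mice and 82.9, 84.2 and 81.9 CPM in SD mice (log2 fold change 0.22, adjusted p = 0.56). It passed in only 1 of the 6 fits that left out a mouse, the one without CTR mouse 2.

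The remaining genes of this group did not pass. Hapln2, a link protein of the matrix at nodes of Ranvier, was 1 of only 3 of the 36 genes with a negative value, at 15.6, 16.1 and 13.7 CPM in CTR mice and 11.6, 14.2 and 15.3 CPM in SD mice (log2 fold change -0.14, adjusted p = 0.81). Ermn, which encodes the cytoskeletal protein ermin, had a log2 fold change of 0.11 (adjusted p = 0.90), and Evi2a one of 0.14 (adjusted p = 0.79). For Ermn the value turned to -0.054 without CTR mouse 1 and to -0.032 without SD mouse 5.

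**Figure D2:**
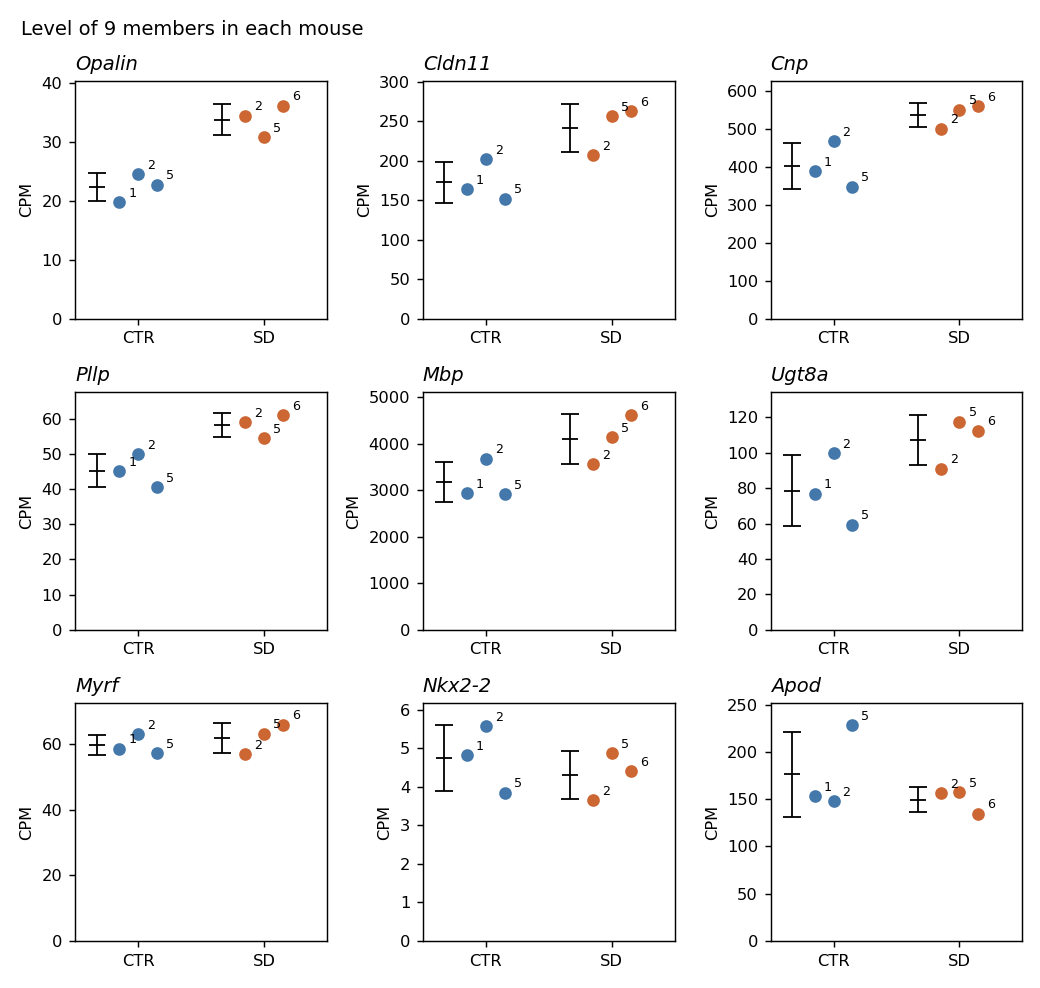
Level (y axis, CPM from 0) of 9 of the genes in each CTR and SD mouse (x axis), with the mouse number beside each point and the mean ± standard deviation of 3 mice to the left of the points. In Opalin, Cldn11, Cnp and Pllp no SD mouse overlaps a CTR mouse, in Mbp and Ugt8a CTR mouse 2 reaches the SD range, and in Myrf, Nkx2-2 and Apod the groups overlap.

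The 4 enzymes of myelin lipids all had positive values, and 1 passed the unadjusted p. Ugt8a, which makes galactosylceramide, measured 76.8, 99.7 and 59.3 CPM in CTR mice and 91.0, 118 and 112 CPM in SD mice, at a log2 fold change of 0.45 (SE 0.17, adjusted p = 0.55). CTR mouse 2 lay above SD mouse 2, and the gene passed only without CTR mouse 2 or SD mouse 2 among the fits that left out a mouse. Fa2h, which hydroxylates the fatty acids of these lipids, had a log2 fold change of 0.26 (adjusted p = 0.69), and Aspa, which cleaves N-acetylaspartate, one of 0.21 (adjusted p = 0.72). Gal3st1, which sulfates galactosylceramide to sulfatide, measured 11.7, 14.0 and 9.75 CPM in CTR mice and 10.8, 13.9 and 14.7 CPM in SD mice (log2 fold change 0.16, adjusted p = 0.83). The groups overlapped in all 4 enzymes.

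None of the 3 junction genes passed. Gjc3, the connexin 29 gene, measured 62.6, 73.8 and 54.8 CPM in CTR mice and 71.3, 75.2 and 72.3 CPM in SD mice (log2 fold change 0.19, adjusted p = 0.65). Gjb1, the connexin 32 gene, on the X chromosome, had a log2 fold change of 0.16 (adjusted p = 0.84) and its highest level, 15.1 CPM, in CTR mouse 2. Cldn14, a claudin gene and the least expressed of the 36 per kilobase, measured 0.964, 1.15 and 0.394 CPM in CTR mice and 0.893, 1.35 and 1.13 CPM in SD mice. Its log2 fold change of 0.46 had a standard error of 0.38, the widest of all 36 (adjusted p = 0.79), so no difference was detectable. CTR mouse 5 was the low one here, and without it the log2 fold change was 0.090 (SE 0.31).

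The transcription factors stood nearer to 0 than the structural genes, with a median log2 fold change of 0.057 over 5 genes against 0.36 over the 5 genes of compact myelin; the difference between the medians was not tested. Myrf, the factor that drives myelin genes in maturing oligodendrocytes, measured 58.6, 63.1 and 57.2 CPM in CTR mice and 56.9, 63.1 and 65.8 CPM in SD mice. These ranges nearly coincide, with a log2 fold change of 0.056 (SE 0.086, adjusted p = 0.90). Nkx2-2, which acts at the onset of differentiation, measured 4.82, 5.57 and 3.84 CPM in CTR mice and 3.65, 4.87 and 4.40 CPM in SD mice (log2 fold change -0.13, adjusted p = 0.90). Nkx6-2, a homeodomain factor of mature oligodendrocytes, was the exception, at 9.68, 11.1 and 13.3 CPM in CTR mice and 12.2, 15.0 and 16.2 CPM in SD mice (log2 fold change 0.34, adjusted p = 0.59). It passed in only 2 of the 6 fits that left out a mouse, those without CTR mouse 5 and without SD mouse 2. Sox8, a SOX factor of the lineage, had a log2 fold change of 0.13 (adjusted p = 0.73) although its groups did not overlap, and the zinc finger gene Zfp536 had one of 0.057 (adjusted p = 0.94).

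Of 6 receptors and signalling genes 4 had an unadjusted p of at most 0.05. Ppp1r14a, an inhibitor of myosin phosphatase, measured 7.45, 9.12 and 8.64 CPM in CTR mice and 9.74, 11.4 and 13.3 CPM in SD mice, the largest log2 fold change of the group at 0.45 (SE 0.15, adjusted p = 0.54). Lpar1, a receptor for lysophosphatidic acid, measured 35.8, 44.5 and 35.2 CPM in CTR mice and 42.4, 51.8 and 54.7 CPM in SD mice (log2 fold change 0.37, adjusted p = 0.55), again with CTR mouse 2 above SD mouse 2. Neither gene passed without SD mouse 6, where the log2 fold changes were 0.33 for Ppp1r14a and 0.29 for Lpar1. Tmeff2, a transmembrane protein gene, measured 80.7, 90.8 and 90.6 CPM in CTR mice and 105, 101 and 98.3 CPM in SD mice (log2 fold change 0.22, adjusted p = 0.55). Sirt2, a deacetylase gene whose protein is abundant in myelin, measured 158, 163 and 142 CPM in CTR mice and 171, 174 and 192 CPM in SD mice (log2 fold change 0.22, adjusted p = 0.56). Neither overlapped between the groups, but Tmeff2 no longer passed without CTR mouse 1, SD mouse 2 or SD mouse 5, nor Sirt2 without CTR mouse 5, SD mouse 5 or SD mouse 6. Gpr37, an orphan receptor gene, just missed the unadjusted cutoff at a log2 fold change of 0.17 (SE 0.077, adjusted p = 0.61), with no overlap between the groups. Plekhb1, the most abundant gene of the group in CPM, measured 314, 403 and 332 CPM in CTR mice and 376, 363 and 386 CPM in SD mice (log2 fold change 0.10, adjusted p = 0.82), with its highest level in CTR mouse 2.

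Among the 5 carriers, cytoskeletal and stress genes, Trf and Gsn passed the unadjusted p. Trf, the transferrin gene, which oligodendrocytes use for iron transport, measured 269, 291 and 224 CPM in CTR mice and 294, 360 and 358 CPM in SD mice, at a log2 fold change of 0.37 (SE 0.11, adjusted p = 0.51). The SD mouse nearest to the CTR range, SD mouse 2, was only slightly above CTR mouse 2. Choroid plexus epithelium also makes transferrin, and 13 of its 14 listed markers were called higher in SD mice. None of the 14 was at 0 in any mouse, and their sum was lowest in CTR mouse 2, at 153 CPM, where Trf had the highest level of the CTR mice. In SD mice 2, 5 and 6 the sum was 2571, 7505 and 7688 CPM, and SD mouse 2 also had the lowest Trf of the SD mice. The part of choroid plexus RNA in the Trf values was not tested. Gsn, which encodes the actin-severing protein gelsolin, measured 96.0, 90.8 and 66.9 CPM in CTR mice and 106, 126 and 124 CPM in SD mice (log2 fold change 0.49, SE 0.13, adjusted p = 0.51). Here CTR mouse 5 was the low one, and without it the log2 fold change was 0.34 (SE 0.096).

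Cryab, a small heat shock protein gene, measured 68.6, 94.5 and 74.0 CPM in CTR mice and 76.5, 106 and 126 CPM in SD mice, a log2 fold change of 0.38 (SE 0.17, adjusted p = 0.60) that lay just outside the unadjusted cutoff in edgeR and inside it in DESeq2. Qdpr, which recycles tetrahydrobiopterin, had a log2 fold change of 0.16 (adjusted p = 0.75). Apod, the apolipoprotein D gene, had the lowest value of the 36, at 153, 148 and 228 CPM in CTR mice and 157, 158 and 135 CPM in SD mice (log2 fold change -0.24, SE 0.15, adjusted p = 0.72). The size of the negative value rested on CTR mouse 5, as the other 5 mice lay between 135 and 158 CPM, and without that mouse the log2 fold change was -0.0091. Without CTR mouse 2, on the other hand, Apod passed as lower, at -0.35.

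The genes also differed together between mice of 1 group. As the log2 level minus the mean over the 6 mice, the median over the 36 genes was -0.21 in CTR mouse 1, 0.040 in CTR mouse 2 and -0.23 in CTR mouse 5. It was 0.017, 0.18 and 0.21 in SD mice 2, 5 and 6, while over all genes tested it was between -0.0020 and 0.0075. CTR mouse 2 was the highest CTR mouse in 32 of the 36 genes, and SD mouse 2 the lowest SD mouse in 26. Set against each other, SD mouse 2 was above CTR mouse 2 in 20 of the 36 genes with a median log2 difference of 0.013, whereas SD mouse 5 was above CTR mouse 5 in 35 with a median log2 difference of 0.39. In the other pairs of 1 CTR and 1 SD mouse the SD mouse was the higher one in 25 to 34 genes. The 36 genes took 0.725%, 0.894% and 0.747% of all counts in CTR mice 1, 2 and 5. In SD mice 2, 5 and 6 the shares were 0.888%, 1.02% and 1.05%. The median standard deviation within groups was 0.19 on the log2 scale for these genes and 0.15 for all genes tested.

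**Figure D3:**
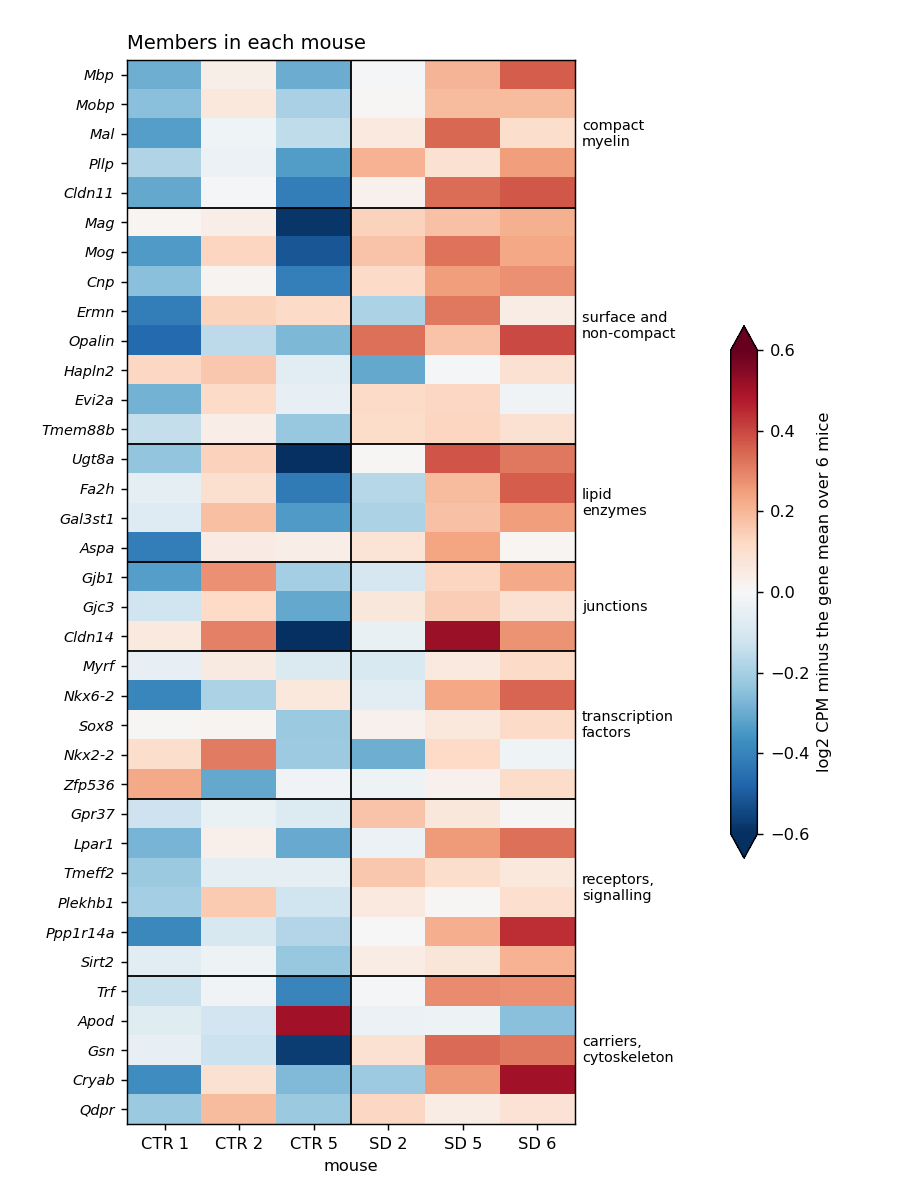
Log2 CPM minus the mean of the gene over the 6 mice (colour, with values beyond 0.6 in either direction drawn in the end colours) for each of the 36 genes (rows, by role) in each mouse (columns). CTR mice 1 and 5 are blue in most rows and SD mice 5 and 6 red, while CTR mouse 2 and SD mouse 2 lie between them, with medians of 0.040 and 0.017.

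The count of genes at the unadjusted p depended on single mice. Of the 36, 12 were higher at that p without CTR mouse 1, 23 without CTR mouse 2, 13 without CTR mouse 5, 17 without SD mouse 2, and 10 when SD mouse 5 or SD mouse 6 was left out. The shares of all genes higher at that p in the same fits were 3.41%, 4.39%, 7.04%, 5.15%, 2.92% and 2.03%. Opalin, Cldn11, Cnp, Gsn, Pllp, Mog and Trf passed in each of the 6 fits, and at least 32 of the 36 genes had a positive value in each. Without CTR mouse 5, which leaves males by Xist and Ddx3y, 33 were positive with a median of 0.18. Genes passing both cutoffs were Opalin, Cldn11, Mog and Ugt8a without CTR mouse 2, Opalin and Cldn11 without SD mouse 2, Gsn without CTR mouse 1, Opalin without either mouse numbered 5, and none without SD mouse 6.

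Marker levels of other tissue moved between mice as well. The thalamic markers, a sign of adjoining tissue, were highest in CTR mouse 2, the CTR mouse with the most myelin RNA, and 8 of the 13 passed both cutoffs downwards and none upwards. Their summed level was 323 to 588 CPM in CTR mice and 283 to 352 CPM in SD mice, the other way from the myelin genes. The choroid plexus sum, 13 of 14 called higher, was high in SD mice 5 and 6, at 7505 and 7688 CPM, as were the myelin genes, but in CTR mouse 2 it was the lowest and in CTR mouse 5 the highest of the CTR mice. The 8 ependymal markers all had positive values, with 3 called higher, and summed to 30.6 to 64.2 CPM in CTR mice and 60.0 to 75.3 CPM in SD mice. The 7 striatal markers summed to 105 to 115 CPM in CTR mice and to 133 to 147 CPM in SD mice, without overlap, although only 1 of the 7 was called higher and their median log2 fold change was 0.014. Of 3 hypothalamic markers tested 2 were called higher, at sums of 2.52 to 4.63 CPM in CTR mice and 4.72 to 23.2 CPM in SD mice. Neocortical markers went the other way, with 5 of 8 lower at the unadjusted p, 2 of them called, and sums of 212 to 267 CPM in CTR mice and 179 to 209 CPM in SD mice. The 5 medial habenula markers summed to 139 CPM in CTR mouse 5 and to 54.5 to 63.5 CPM in the other 5 mice. The part of adjoining tissue in the myelin values was not tested. Astrocyte markers summed to 5968 to 7793 CPM in CTR mice and 6142 to 6847 CPM in SD mice, with 0 of 12 higher and 1 lower at the unadjusted p, and microglial markers to 408 to 502 and 465 to 497 CPM with 0 of 10 at that p in edgeR. Of 8 Schwann cell markers, for the myelinating cells of peripheral nerve, 6 were in the table, with a sum of 112 to 118 CPM in CTR mice and 94.5 to 108 CPM in SD mice.

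**Figure D4:**
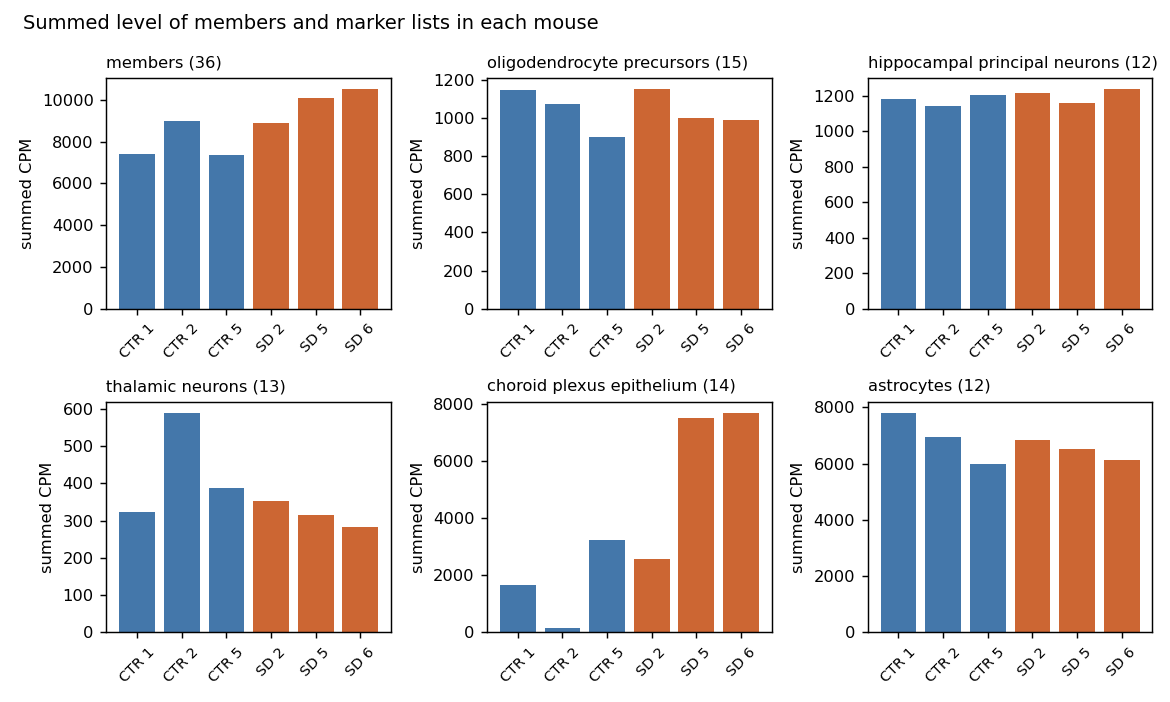
Summed CPM (y axes, from 0) of the 36 myelin genes and of 5 marker lists in each CTR (blue) and SD (orange) mouse (x axes), with the number of genes in each list in brackets. The myelin sum runs from 7364 to 9004 CPM in CTR mice and from 8880 to 10506 CPM in SD mice, while the thalamic sum peaks in CTR mouse 2 and the choroid plexus sum in SD mice 5 and 6.

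Genes of the same lineage outside the 36 showed smaller medians. Over all genes tested 4.65% passed upwards and 3.68% downwards. Of 46 other oligodendrocyte genes, 9 passed upwards and none downwards, and the median log2 fold change was 0.11. Cd9, a tetraspanin gene, measured 43.4, 43.5 and 43.1 CPM in CTR mice and 55.6, 68.4 and 63.3 CPM in SD mice (log2 fold change 0.53, adjusted p = 0.51). Tspan2 and Grb14 had log2 fold changes of 0.36 and 0.35. Of 12 genes of committed and premyelinating cells, 4 passed upwards and none downwards, with a median of 0.19. They were Rras2, Enpp6, Cnksr3 and Bcas1, with log2 fold changes of 0.27, 0.50, 0.46 and 0.28.

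Of 15 precursor genes 2 passed upwards and 1 downwards, against 4.65% and 3.68% of all genes tested. Their median log2 fold change was 0.029. C1ql1, a secreted C1q family gene of precursors, had a log2 fold change of 0.48 (adjusted p = 0.51) and Emid1 one of 0.52 (adjusted p = 0.55), while Pcdh15, a protocadherin gene, had one of -0.33 (adjusted p = 0.59). Pdgfra, the growth factor receptor that defines precursors, chosen after its values were seen, measured 86.0, 72.8 and 73.6 CPM in CTR mice and 86.4, 82.0 and 77.4 CPM in SD mice (log2 fold change 0.081, adjusted p = 0.85). The summed level of the 15 was 900 to 1144 CPM in CTR mice and 990 to 1150 CPM in SD mice. Of 18 genes of cholesterol metabolism, which supply the main lipid of myelin but are used by all cells, 5 were higher and none lower, with a median of 0.19. Of these Insig1, a sterol sensor partner, had a log2 fold change of 0.33. Whether any of these lists differs from the 36 was not tested.

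**Figure D5:**
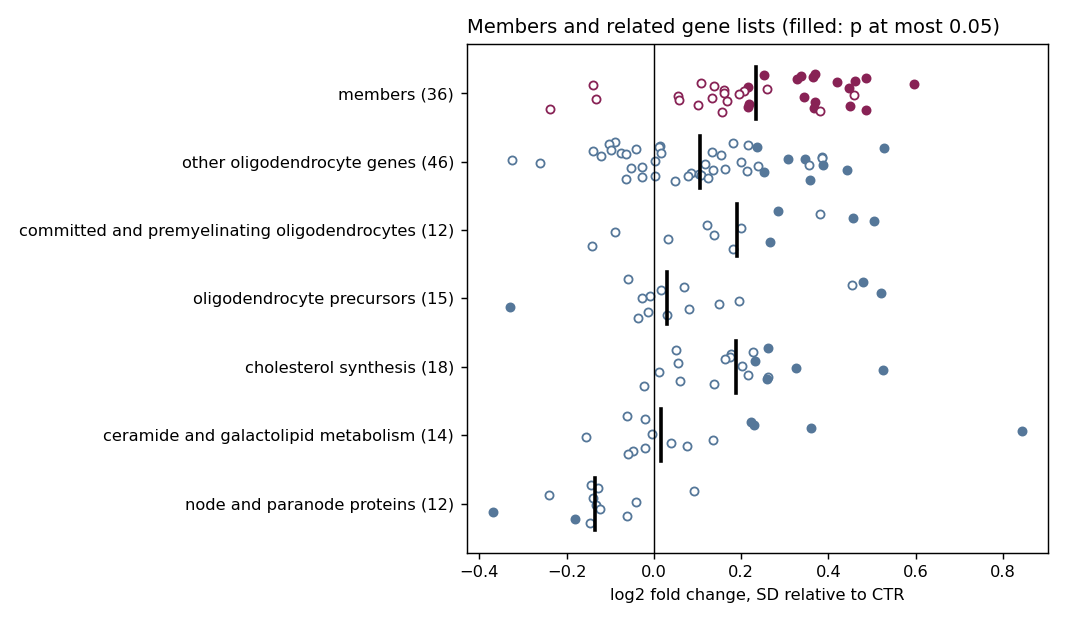
Log2 fold change of SD relative to CTR mice (x axis) for each gene of the 36 myelin genes and of 6 related lists (rows, number tested in brackets), with black bars at the medians and filled points at an unadjusted p of at most 0.05. The medians are 0.23 for the myelin genes, 0.11 for other oligodendrocyte genes and 0.029 for precursors.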

How the data were processed

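The RNA-seq libraries of 3 CTR and 3 SD mice were made from polyadenylated RNA. Before deposit the authors trimmed reads (Trim Galore), aligned them (Hisat2, mm10) and made stranded counts per gene (featureCounts) in which multi-mapping reads stayed (SAMtools and Picard are also named in the submitters' processing notes), so genes with near-identical copies have uncertain counts. Tool versions and annotation: not given in the sources used here. Deposited counts were used as they stand, and each column was assigned to the mouse whose title it repeats. The same table holds the authors' DESeq2 results, which were not used: a deposited signal value (the mean of counts divided by size factors), a log2 fold change with its error, a score (the Wald statistic) and p-values with adjusted p-values; the other sheets repeat called genes.

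Counts were analysed in R 4.3.3 with edgeR 4.0.16: filterByExpr (78 of 15423 genes removed), TMM, glmQLFit and glmQLFTest, SD against CTR over 6 mice without covariate. The edgeR script was first tested on simulated data, counts drawn with known fold changes. Standard errors are derived from the F statistic and the log2 fold change. As in the paper, a gene was called at an unadjusted p of at most 0.05 with a log2 fold change of at least 0.58 in size. Levels are CPM with TMM factors, and log2 levels used a prior count of 2. Lengths are merged exons of GENCODE vM21, and coordinates and promoters are from RefSeq (GRCm38.p6). Alternatives were DESeq2 1.42.0, its size factors, other filters, robust dispersion, a replicate block and leaving out each mouse. The 36 genes, the lists and the tests were chosen with earlier results of these data known. All 36 genes are named. Values per mouse are given for those with p of at most 0.05 and, in each role group, for the highest, the lowest and the most changed gene, and other genes are named by smallest p, at most 4 a list; further ones were chosen after their values were seen.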

Additional observations from a re-analysis of the deposited data

How the results depend on the processing

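No direction of a gene with p of at most 0.05 reversed in the alternatives run. DESeq2 gave 2 of the 36 genes and 56 of all genes an adjusted p under 0.05, where edgeR gave 0 of either with 18 and 1277 at an unadjusted p of at most 0.05. With a fold cutoff of 0.3 in place of 0.58, 14 of the 36 genes were called higher and 0 lower. The share of all genes called at 0.3 was not computed. At the unadjusted p and any fold change, 4.65% of all genes tested were higher and 3.68% lower. With a mean count of at least 50 the calls over all genes fell to 265 from 457. Leaving out each mouse gave 0 to 4 of the 36 genes called higher, 10 to 24 at the unadjusted p, 32 to 33 with a positive value and 0 with an adjusted p under 0.05, and over all genes from 242 to 707 calls, 604 to 2173 genes at the unadjusted p and 0 to 1 at the adjusted p. CTR and SD share the mouse numbers 2 and 5, but the sources do not say that a number pairs mice. Deviations from the group means correlated across genes at 0.21 for the mice numbered 2 and 0.12 for those numbered 5, and at -0.15 to 0.12 for other pairs. With the number as a replicate block, 30 of the 36 genes had a positive value, 8 had an unadjusted p of at most 0.05 and 0 were called, and among all genes 691 had that p and 12 an adjusted p under 0.05. That fit compares only mice 2 and 5 of each group. DESeq2 size factors, no filter, robust dispersion and, chosen after seeing the data, leaving out Rn45s each kept 18 genes at the unadjusted p. With 3 mice a group and standard errors of 0.077 to 0.38 on the log2 scale, smaller differences could not be resolved.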

Other observations

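Of 14 genes of ceramide and galactolipid metabolism, 4 passed an unadjusted p of at most 0.05 upwards in SD mice and none downwards. Over all genes tested 4.65% passed upwards and 3.68% downwards. The median log2 fold change of the 14 genes was 0.017. Elovl7, a fatty acid elongase gene, was called at both cutoffs: it measured 29.0, 19.6 and 33.4 CPM in CTR mice 1, 2 and 5 and 34.7, 57.7 and 54.7 CPM in SD mice 2, 5 and 6, a log2 fold change of 0.84 (SE 0.22, adjusted p = 0.51 in edgeR). Unlike most of the myelin genes it was lowest in CTR mouse 2. The choroid plexus sum was likewise lowest in that mouse and highest in SD mice 5 and 6. That sum was 1647, 153 and 3235 CPM in CTR mice 1, 2 and 5 and 2571, 7505 and 7688 CPM in SD mice 2, 5 and 6. The part of choroid plexus RNA in the Elovl7 values was not tested. Cers2, the synthase of very long chain ceramides, Degs1, which completes the ceramide backbone, and Elovl1, another elongase, had log2 fold changes of 0.22, 0.23 and 0.36.

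Genes of the axonal node and paranode, which neurons express next to the sheath, had negative values in 11 of 12 cases, with a median log2 fold change of -0.14. Over all genes tested 50.4% had a log2 fold change above 0. At the unadjusted p, 2 of the 12 were lower and none higher, where 3.68% of all genes tested were lower and 4.65% higher. Kcna2, a potassium channel gene of the region beside the paranode, measured 319, 326 and 279 CPM in CTR mice and 237, 246 and 233 CPM in SD mice (log2 fold change -0.37, SE 0.082, adjusted p = 0.51 in edgeR). Scn8a, the sodium channel gene of mature nodes, measured 465, 419 and 412 CPM in CTR mice and 384, 370 and 389 CPM in SD mice (log2 fold change -0.18, adjusted p = 0.58 in edgeR). In both genes all SD mice lay below all CTR mice, as in 6.2% of all genes tested. These channels are also used elsewhere in neurons, and a difference between this list and the myelin genes was not tested. At the unadjusted p, 10 of 13 thalamic and 5 of 8 neocortical markers were lower in SD mice and none was higher. Of the 12 markers of hippocampal principal neurons none passed in either direction. The part of adjoining tissue in the node and paranode values was not tested.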
